A study of Mus musculus with 4 samples.

Results

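Replication-dependent histone genes were described in 4 mouse single-cell libraries, per gene, per cell class and per library. The genes were all those whose symbol in the deposited gene list starts with Hist1h, Hist2h, Hist3h or Hist4, which gave 69 of 27998 genes under 68 symbols, since Hist2h2bb carries 2 gene IDs. Membership rests on the symbol alone, but the difference of Hist1h2ap between libraries was already known when the genes were chosen. Their proteins are the linker histone H1 and the core histones H2A, H2B, H3 and H4. The series holds 1 library in each of the groups Ac, C, aC+C and IgG, whose full names are not in the labels. Values for the 4 libraries stand in the order Ac, C, aC+C and IgG, except where libraries are compared and named in another order.

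What the 4 groups share is given inconsistently. According to the titles of the samples and of the series, the cells were tumor-infiltrating, immune in general or CD8+ T. The source and cell type fields and the protocol name goblet cells, which secrete mucus in the intestine, sorted by mCherry signal from RedMUC298trTg mice, and the tag for the genotype gives an age of 6-8 weeks. No tumor line, dose or treatment time is stated. Muc2, the main mucin of goblet cells, had 0 UMIs in the CD8 T and NK gates described below. It had 4 in the monocyte or macrophage gate, 5 in the collagen gate and 2 in ungated barcodes. The gates were set on markers of other cells, so most goblet cells would fall among the ungated barcodes. Ptprc, the leukocyte gene for CD45, was seen in 90.3% of ungated barcodes and in 99.1% of barcodes of the CD8 T gate. Neither was set on Ptprc, though gates set before them took barcodes with little Ptprc.

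Replication-dependent histone genes sit in clusters and are transcribed when a cell copies its DNA, so that new chromatin can be packed. In textbook accounts their mRNAs end in a short stem-loop in place of a poly(A) tail, the stem-loop is bound by the protein encoded by Slbp, and the mRNAs are degraded when replication ends. Some members are also known to give polyadenylated mRNA in cells that do not divide. The droplet method used here primes on poly(A), so it counts histone molecules with a tail or with an internal run of A, and the count is not a measure of all histone mRNA.

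The stem-loop, by which mRNAs of this family are known, was looked for in GENCODE M21 transcripts (GRCm38) and is printed for 8 members to show how alike it is between them. The motif searched on the sense strand was GGCNCTTTTCAGNGCC. It was found in 31 of 67 members with a transcript (46.3%), against 36 of 55450 genes of the annotation (0.0649%). Some members without it have short annotated transcripts, such as Hist1h4k with 312 bases and Hist1h2bl with 381. A transcript annotated only up to a point before the stem-loop cannot show it, so the share does not count genes that lack one. Each line gives the 14 bases before the stem-loop and the stem-loop in capitals, 5′ to 3′.

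Hist1h2ap: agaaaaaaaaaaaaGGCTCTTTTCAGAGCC
Hist1h2ae: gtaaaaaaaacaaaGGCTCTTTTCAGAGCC
Hist1h3a: cggaattaaccaaaGGCTCTTTTCAGAGCC
Hist1h4d: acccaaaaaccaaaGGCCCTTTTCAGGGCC
Hist1h1e: cccaacaacccaaaGGCTCTTTTCAGAGCC
Hist1h1c: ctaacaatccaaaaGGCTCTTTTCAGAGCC
Hist3h2a: ttacagacaccaaaGGCTCTTTTCAGAGCC
Hist4h4: cccccatccacaaaGGCCCTTTTCAGGGCC

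The H2A, H3 and H1 genes shown carry the same 16 letters, and Hist1h4d and Hist4h4 carry a variant. The annotated transcript of Hist1h2ap, an H2A gene at chr13:21833026-21833507 (minus strand), ended 3 bases after the stem-loop and held a run of 12 A directly before it. The annotation ran on for 37 bases after the stem-loop in Hist1h3a, 151 in Hist1h2ae, 770 in Hist1h4d, 840 in Hist1h1c, 1153 in Hist1h1e and 1643 in Hist3h2a. The motif was not found in the annotated transcripts of the H1 gene Hist1h1b (chr13:21779883-21780625, minus strand) or of the H2B gene Hist1h2bc (chr13:23684199-23692908, plus strand). A run of at least 10 A stood in the transcripts of 4 members.

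Near-identical copies limit some of these counts. Of the 90-base windows of Hist1h2ap, 7.63% were found in no other gene, and 92.4% were shared with Hist1h2ao (chr13:21810465-21810944, plus strand), whose own 14 bases before the stem-loop are the same and which had 29 UMIs. Windows were unique for the whole of Hist1h1b, and for 94.3% of Hist1h1c, 73.9% of Hist1h2bc, 73.8% of Hist1h1e, which overlaps Hist1h2be, and 69.9% of Hist3h2a, which shares 30.1% with Trim17. Values of Hist1h2ap may therefore hold reads of Hist1h2ao, and which reads were assigned to either is not given in the sources used here.

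Promoters are shown for the gene with the largest class difference among abundant members, Hist1h1b, and for a member that was lower in S-like barcodes, Hist3h2a. Each runs from 250 bases before to 50 bases after the start in RefSeq (GRCm38.p6), on the gene's strand, with capitals for 3 motifs on either strand, namely the box CCAAT, the TATA box searched as TATAAA and the octamer searched as ATTTGCAT.

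Hist1h1b, chr13:21780576-21780875 (minus strand): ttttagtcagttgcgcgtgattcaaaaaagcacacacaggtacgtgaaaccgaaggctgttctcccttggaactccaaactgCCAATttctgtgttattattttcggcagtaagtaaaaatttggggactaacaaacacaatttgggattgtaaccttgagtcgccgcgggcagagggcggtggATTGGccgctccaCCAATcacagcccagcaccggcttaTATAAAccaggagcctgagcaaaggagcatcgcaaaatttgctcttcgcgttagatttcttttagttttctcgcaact
Hist3h2a, chr11:58954435-58954734 (plus strand): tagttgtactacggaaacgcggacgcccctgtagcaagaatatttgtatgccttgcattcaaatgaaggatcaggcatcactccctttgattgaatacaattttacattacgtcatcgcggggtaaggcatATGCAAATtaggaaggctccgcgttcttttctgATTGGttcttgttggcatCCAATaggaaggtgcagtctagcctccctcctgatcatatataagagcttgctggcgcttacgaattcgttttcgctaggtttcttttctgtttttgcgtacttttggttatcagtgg

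CCAAT was found in 54 of 63 distinct promoters of the family (85.7%), against 37.4% of 32817 promoters of all genes. TATAAA was found in 35 (55.6%, against 13.6%) and ATTTGCAT in 14 (22.2%, against 1.74%). CCAAT stood in both promoters shown, TATAAA in that of Hist1h1b and ATTTGCAT, on the other strand, in that of Hist3h2a. Both strands were searched and none of these motifs contains another.

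The libraries held 65973242, 75665201, 75067320 and 61519049 UMIs (unique molecular identifiers, 1 per counted transcript molecule). Barcodes with at least 1000 UMIs, of which at most 10% came from mitochondrially encoded genes, numbered 4028 in Ac, 4210 in C, 4081 in aC+C and 3436 in IgG, with medians of 10492, 10762, 10671 and 11594.5 UMIs. Pairs of libraries shared 2 to 8 barcodes. Barcodes were gated on marker genes: a CD8 T gate of 1137, 595, 964 and 1021 barcodes, an NK gate of 466, 556, 239 and 481 (Ncr1 in 91.9%), a monocyte or macrophage gate of 1090, 1253, 1428 and 566 (Lyz2 in 99.0%), and a gate on collagen genes and Dcn with 214, 229, 381 and 135. Ncr1 and Lyz2 are in the marker lists that set their gates, so their shares follow in part from the rules. In the collagen gate Ptprc was seen in 15.6% of barcodes, and the mesenchymal genes Tm4sf1 and Hmga2 in 98.1% and 85.9%. The gate is therefore called by its rule.

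Cell-cycle classes were set from 21 S phase genes (S list) and 21 genes of G2 and mitosis (G2/M list), none of them a histone gene. S-like barcodes had the S list at 15 or more UMIs per 10000 and above the G2/M list, G2/M-like barcodes the reverse, and non-cycling barcodes both lists under 8. S-like barcodes made up 14.7%, 17.5%, 20.4% and 22.7% of the CD8 T gate. UMIs were summed per class and library and expressed as CPM (counts per 1000000 UMIs of the class). Classes of the same library were compared with edgeR's quasi-likelihood test over the libraries, with the library as a block, and called at a Benjamini-Hochberg adjusted p under 0.05 over all genes tested. In such sums, fewer expressing cells and less RNA per cell cannot be told apart.

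Over all kept barcodes the family had 177755 UMIs, which came to 681, 687, 748 and 632 CPM. A few genes held most of them: Hist1h1b (31453 UMIs) and Hist1h2ap (28846) made up 33.9%, and the top 6, with the H1 genes Hist1h1e (17341) and Hist1h1c (15460), the H2B gene Hist1h2bc (14392) and the H2A gene Hist1h2ae (12977), made up 67.8%. Of the 69 genes, 47 had at least 200 UMIs, 22 had fewer, and 5 of these had 0 (Hist1h2bq, Hist1h2br, Hist1h4m, Hist1h2ba and Hist1h2aa). Windows found in no other gene made up 4.7% of Hist1h2bq, 13.1% of Hist1h2br and 11.5% of Hist1h4m. For these 3 genes a count of 0 may reflect how reads of copies were assigned, which was not tested. The counts are of 3′ molecules and are not scaled for length, so levels are compared for 1 gene between classes and not between genes.

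In the CD8 T gate most histone genes were far higher in S-like than in non-cycling barcodes. Of 32 members that passed the filter on low counts, 28 rose and 3 fell, and 1 was not called. Over all 9827 genes tested, 27% were called higher and 25.2% lower. The median log2 change over the tested members was 2.51, against -0.02 over all genes tested. The filter keeps members that are high in at least 1 class, so these counts do not speak for the other 37 genes. The same limit holds for each count of members tested in the comparisons below. The 4 libraries differ in group, and the p-values measure the spread of the class difference between them.

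Among the linker histones, Hist1h1b (ENSMUSG00000058773), which encodes H1.5, stood at 235, 221, 268 and 195 CPM in S-like barcodes, against 5.33, 3.09, 4.61 and 1.80 CPM in non-cycling barcodes. The classes did not overlap in any library, and the log2 change was 5.90 ± 0.13 (SE, 4 libraries, adjusted p = 7.49e-13), a fold of 59.9. Hist1h1e, which encodes H1.4, stood at 106, 95.6, 99.7 and 86.5 CPM in S-like barcodes, against 34.5, 33.4, 29.7 and 25.6 CPM in non-cycling barcodes. Its change was smaller, at 1.66 ± 0.08 (adjusted p = 5.82e-10), and its non-cycling level was well above 0 in every library. Hist1h1a (H1.1) rose by 5.68 ± 0.39 and Hist1h1d (H1.3) by 3.09 ± 0.24. Hist1h1c, which encodes H1.2, was the exception: it stood at 34.1, 30.9, 27.8 and 27.6 CPM in S-like barcodes, against 31.7, 28.7, 35.4 and 38.7 CPM in non-cycling barcodes. The ranges overlapped, and the log2 difference of -0.19 ± 0.11 did not pass the test (adjusted p = 0.174). Without barcodes over 40000 UMIs it was -0.32 and just passed (adjusted p = 0.0499).

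Among the H2A genes, Hist1h2ap stood at 69.0, 228, 343 and 70.8 CPM in S-like barcodes, against 2.81, 8.04, 9.01 and 2.88 CPM in non-cycling barcodes. It was higher by a log2 change of 4.91 ± 0.11 (adjusted p = 7.66e-13), with C and aC+C above Ac and IgG in both classes. Hist1h2ae stood at 103, 106, 132 and 57.5 CPM in S-like barcodes, against 6.52, 4.33, 5.93 and 2.70 CPM in non-cycling barcodes. It rose by 4.29 ± 0.11, with no overlap between the classes. Hist1h2af and Hist1h2ab rose by 5.88 ± 0.58 and 5.08 ± 0.33, and Hist2h2ac, from the chromosome 3 cluster, by 1.78 ± 0.17. Hist3h2a, an H2A gene on chromosome 11, went the other way. It stood at 1.24, 5.57, 2.16 and 4.16 CPM in S-like barcodes, against 11.1, 8.96, 9.89 and 13.2 CPM in non-cycling barcodes, lower in all 4 libraries by a log2 change of -1.82 ± 0.29 (adjusted p = 0.000123).

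Among the H2B genes, Hist1h2bj rose by 3.10 ± 0.18 and Hist1h2bb by 4.31 ± 0.43, while 2 members fell. Hist3h2ba, the chromosome 11 neighbour of Hist3h2a, stood at 7.43, 3.54, 5.41 and 5.16 CPM in S-like barcodes, against 12.4, 8.65, 7.69 and 7.21 CPM in non-cycling barcodes (-0.69 ± 0.21, adjusted p = 0.0129). Hist1h2bc stood at 11.5, 12.6, 12.2 and 11.7 CPM in S-like barcodes, against 9.92, 17.6, 18.0 and 22.0 CPM in non-cycling barcodes (-0.49 ± 0.17, adjusted p = 0.0288). Hist3h2ba was lower in all 4 libraries and Hist1h2bc in 3 of them. The call on Hist1h2bc was lost without aC+C (adjusted p = 0.0986), without IgG (0.252), with DESeq2 (0.189) and without the library block (0.0889). The call on Hist3h2ba was lost without Ac (0.0658) and with DESeq2 (0.108).

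The H3 and H4 genes that were tested rose. Hist1h3b and Hist1h3c, H3 genes of the chromosome 13 cluster, rose by 5.67 ± 0.63 and 3.69 ± 0.27. Hist1h3a stood at 28.2, 17.7, 22.7 and 19.2 CPM in S-like barcodes, against 2.67, 2.47, 1.98 and 1.80 CPM in non-cycling barcodes (3.32 ± 0.19). Hist1h4d, an H4 gene, stood at 59.4, 27.3, 46.2 and 40.5 CPM in S-like barcodes, against 15.1, 10.2, 14.5 and 12.1 CPM in non-cycling barcodes (1.75 ± 0.11, adjusted p = 1.36e-08). Hist1h4h and Hist1h4i rose by 1.39 ± 0.26 and 1.19 ± 0.12. Each of these log2 changes is from the edgeR fit over the 4 libraries.

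**Figure D1:**
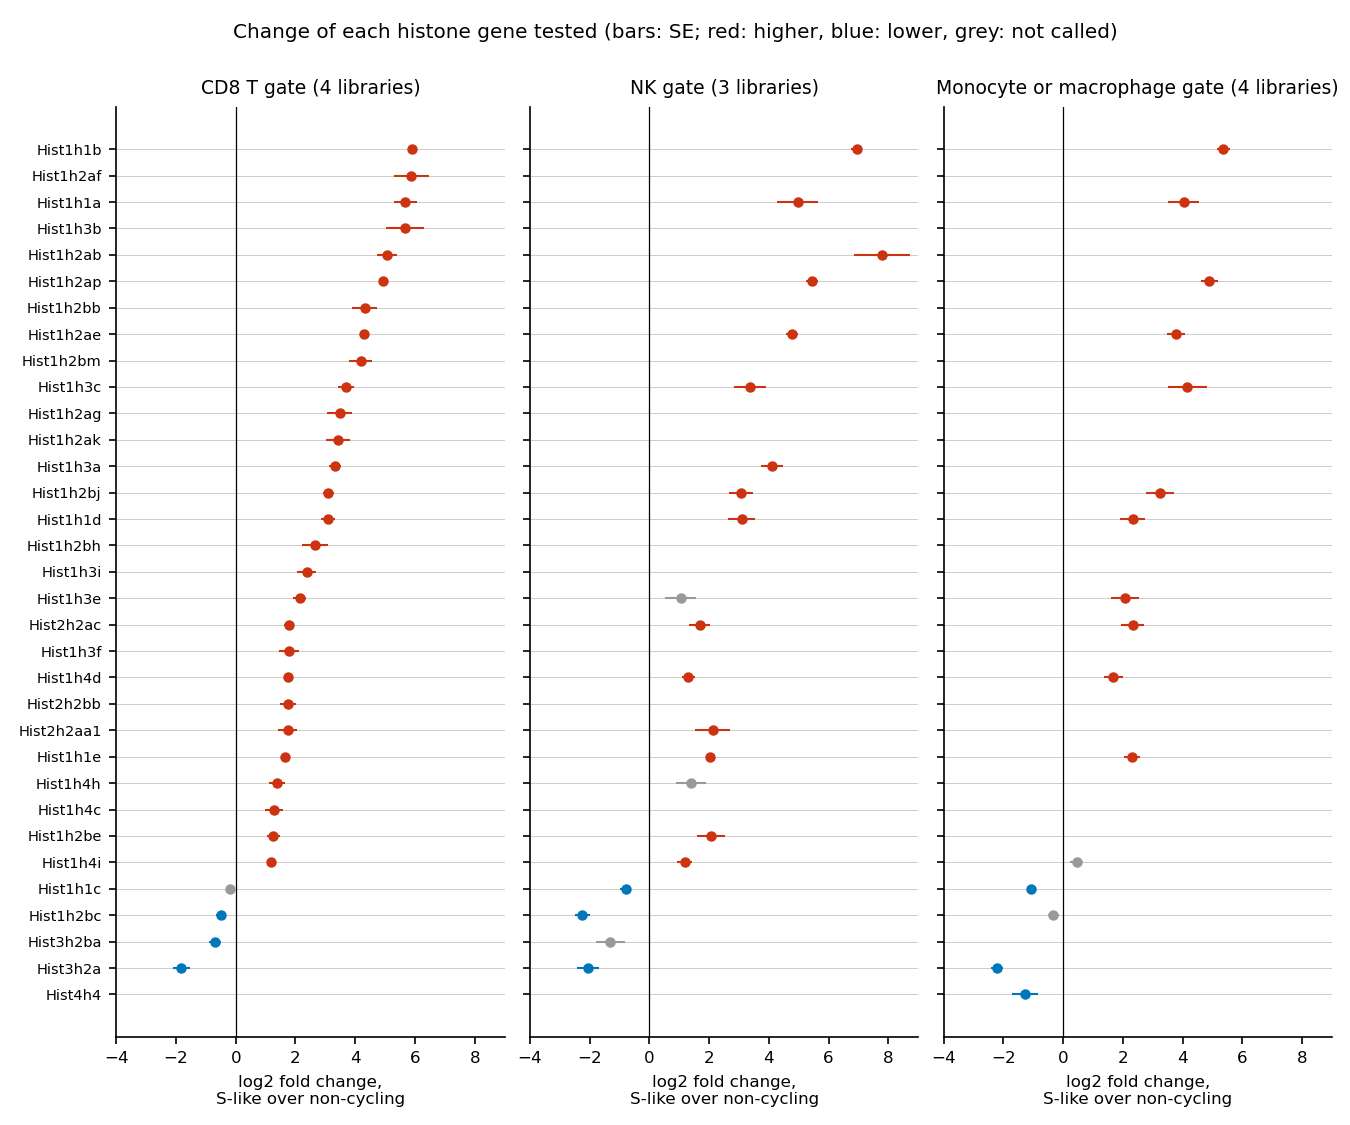
Log2 fold change of S-like over non-cycling barcodes (x axis) for each histone gene tested (y axis) in the CD8 T, NK and monocyte or macrophage gates, with SE bars; red points were called higher, blue lower and grey not called. Most genes lie right of 0 in all 3 gates, and Hist3h2a lies left of 0 in each, at -1.82, -2.06 and -2.22.

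The same comparison in the NK gate used the 3 libraries Ac, C and IgG, since aC+C had 18 S-like barcodes. Of 21 members tested, 15 rose and 3 fell, against 15.5% called higher and 10.1% called lower over 9136 genes. The median change of the members was 2.06, against -0.03 over all genes. Hist1h1b stood at 204, 126 and 208 CPM in S-like barcodes of Ac, C and IgG, against 1.55, 1.53 and 1.12 CPM in non-cycling barcodes (6.93 ± 0.18, adjusted p = 3.94e-11). Hist1h2bc stood at 3.72, 13.2 and 7.59 CPM in S-like barcodes, against 31.8, 41.1 and 46.3 CPM in non-cycling barcodes (-2.25 ± 0.26). All 3 libraries had it lower by 3-fold or more. Hist3h2a stood at 2.48, 2.63 and 5.69 CPM in S-like barcodes, against 16.6, 15.96 and 13.6 CPM in non-cycling barcodes (-2.06 ± 0.36). Hist1h1c fell by 0.80 ± 0.20 on the log2 scale (adjusted p = 0.00877), a call that was lost without C (0.069) and with DESeq2 (0.122).

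In the monocyte or macrophage gate, 16 members were tested; 11 rose and 3 fell, against 28.3% called higher and 29.1% called lower over 10407 genes. The median change of the members was 2.31, against -0.04 over all genes. Hist1h1b stood at 123, 131, 50.4 and 154 CPM in S-like barcodes, against 2.22, 3.11, 1.64 and 1.48 CPM in non-cycling barcodes (5.37 ± 0.21, adjusted p = 6.33e-09). Hist3h2a stood at 12.9, 5.38, 8.89 and 9.996 CPM in S-like barcodes, against 38.7, 32.8, 31.9 and 37.5 CPM in non-cycling barcodes (-2.22 ± 0.20, adjusted p = 2.8e-06). Hist1h1c stood at 44.5, 38.2, 20.01 and 26.2 CPM in S-like barcodes, against 58.9, 65.4, 49.9 and 54.2 CPM in non-cycling barcodes (-1.07 ± 0.15). Both genes were lower in S-like barcodes of every library. Hist4h4, an H4 gene on chromosome 6, had a change of -1.29 ± 0.43 (adjusted p = 0.0244), and the call was lost without Ac, without aC+C and with DESeq2.

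Markers of other cells moved with the S-like class of this gate. Its 145 barcodes had a median of 26383 UMIs, against 10253 in 3889 non-cycling barcodes. The collagen and Dcn list stood at 672 CPM (527 to 845 over the libraries) in S-like barcodes, against 219 CPM (87.2 to 378) in non-cycling barcodes, and barcodes with at least 5 of its UMIs made up 25.5% and 1.13%. A list of mesenchymal genes stood at 576 and 33.9 CPM, the NK list at 144 and 30.3 CPM, and the monocyte or macrophage list at 9758 and 19593 CPM, in the S-like and non-cycling barcodes. In the CD8 T gate the collagen list stood at 47.2 CPM in S-like and 58.2 CPM in non-cycling barcodes, and median UMIs were 17773.5 and 8807.5. There the mesenchymal list stood at 24.2 CPM (1.86 to 97.1 over the libraries) in S-like barcodes, against 6.22 CPM (2.67 to 9.23) in non-cycling barcodes. The dendritic cell list stood at 88.3 and 212 CPM and the NK list at 18.4 and 49.4 CPM in the same 2 classes. The part of these other genes in the histone values was not tested. Without the barcodes of at least 5 collagen-list UMIs, a setting chosen after the data were seen, Hist1h1b had a change of 5.58, Hist3h2a of -2.02 and Hist1h1c of -1.64, with 10 members higher and 3 lower of 14. Hist1h2bc, which was not called with all barcodes (-0.33 ± 0.19, adjusted p = 0.156), then stood at -2.61 (adjusted p = 4.85e-07). Without barcodes over 40000 UMIs it stood at -2.58 (adjusted p = 6.09e-07), and it was also called without Ac (-0.56, adjusted p = 0.0166) and with no filter on low counts (-0.42, adjusted p = 0.0129).

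Of 15 members tested in all 3 gates, 10 rose in each: Hist1h1a, Hist1h1b, Hist1h1d, Hist1h1e, Hist1h2ae, Hist1h2ap, Hist1h2bj, Hist1h3c, Hist1h4d and Hist2h2ac. Over all 8648 genes tested in the 3 gates, 12.4% were called higher in each and 6.24% lower in each. The NK call on Hist2h2ac was lost without Ac (adjusted p = 0.0956). Hist3h2a was the 1 member that fell in each. Whether the S-like change differed between gates was tested as an interaction, gate minus CD8 T. On simulated counts the NK test recovered 4.48% of 1.5-fold, 37.3% of 2-fold and 89.4% of 4-fold differences. The monocyte or macrophage test recovered 11.9%, 37.3% and 93.9%. Only genes with many counts were changed in these simulations. Members not called may therefore still differ, and those with few counts by more than 2-fold. Among members not called, Hist1h2ab had a difference of 3.34 ± 1.44 in the NK test. Hist1h2bh had -4.43 ± 2.76 in the monocyte or macrophage test. In NK edgeR called 0 of 34 members (0.135% of 10340 genes were called higher and 0.0387% lower), and 4 were higher and 3 lower at an unadjusted p under 0.05; the member nearest to a call, Hist1h2bc, had a difference of -1.82 with adjusted p = 0.0945. In the monocyte or macrophage gate 0 members were higher and 2 lower, against 14.6% higher and 9.86% lower of 11309 genes: Hist1h1c (-0.80 ± 0.20, adjusted p = 0.00854) and Hist2h2aa1, an H2A gene (-2.00 ± 0.56, adjusted p = 0.0180). The call on Hist2h2aa1 was lost without C (adjusted p = 0.0508), without IgG (0.0597) and without the collagen-list barcodes (0.191), and 88.5% of its windows were shared with Gm20634.

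Most histone genes were lower in S-like than in G2/M-like barcodes of the CD8 T gate. Of 39 members tested, 0 were called higher and 36 lower, against 11.5% called higher and 12.6% called lower over 9621 genes. The median change was -1.35, against -0.01 over all genes. Hist1h1b stood at 235, 221, 268 and 195 CPM in S-like barcodes, against 747, 580, 581 and 479 CPM in G2/M-like barcodes (-1.38 ± 0.07, adjusted p = 4.61e-10). At an unadjusted p under 0.05, 0 members were higher and 37 lower, and DESeq2 called 0 higher and 29 lower. Hist1h2ap had a change of -1.29 ± 0.09, a call that was lost without the library block (adjusted p = 0.185). Hist1h4h and Hist3h2ba had changes of -1.94 ± 0.16 and -1.92 ± 0.16. Markers of other cells differed between these classes too. The collagen list stood at 47.2 CPM (5.57 to 113 over the libraries) in S-like barcodes, against 191.9 CPM (4.81 to 516) in G2/M-like barcodes, and the NK list at 18.4 and 49.3 CPM. Without the barcodes of at least 5 collagen-list UMIs, 38 of 40 members were called lower, and Hist1h1b had a change of -1.43. The 3 members not called with all barcodes were Hist1h1a (-0.56 ± 0.20), Hist1h4a (-0.41 ± 0.34) and Hist1h3a (0.07 ± 0.12, adjusted p = 0.799). Hist1h3a stood at 28.2, 17.7, 22.7 and 19.2 CPM in S-like barcodes, against 26.7, 13.1, 24.3 and 17.9 CPM in G2/M-like barcodes, and its ranges overlapped almost wholly. Hist1h1a was called lower with no filter on low counts (adjusted p = 0.0034), without IgG (0.0187), without barcodes over 40000 UMIs (0.00335) and without the collagen-list barcodes (0.0128).

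The G2/M-like class also holds barcodes with a high S list, so 3 narrower classes were set after the data were seen. They were barcodes with the S list alone high (S list 15 or more per 10000, G2/M list under 8), both lists high (15 or more each) and the G2/M list alone high. In the CD8 T gate, histone UMIs summed over all members came to 188 CPM in 2024 non-cycling barcodes, 237 in 442 with the S list alone, 2890 in 489 with both lists and 840 in 134 with the G2/M list alone. The 4 libraries spanned 172 to 208, 230 to 258, 2165 to 3304 and 651 to 1096 CPM in these classes. The peak with both lists high was seen in each gate: summed levels in the same 4 classes were 188, 122, 2763 and 691 CPM in the NK gate, 204, 196, 1482 and 743 CPM in the monocyte or macrophage gate, and 434, 202, 1502 and 974.98 CPM in the collagen gate.

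Sums were also taken for each histone family, and differences between families were not tested. In the CD8 T gate H1 UMIs summed to 73.2, 67.4, 73.6 and 67.9 CPM in non-cycling barcodes, and to 70.2, 75.1, 59.8 and 72.4 CPM with the S list alone. They reached 1415, 1239, 1198 and 1037 CPM with both lists high, and stood at 236, 216, 330 and 269 CPM with the G2/M list alone. H3 UMIs were already higher with the S list alone, at 44.9, 32.0, 32.3 and 35.0 CPM, against 11.1, 7.11, 15.6 and 9.37 CPM in non-cycling barcodes. H2A UMIs with both lists high differed most between libraries, at 987 CPM in Ac, 1218 in C, 1435 in aC+C and 570.4 in IgG. This sum includes Hist1h2ap, which itself differed strongly between libraries, and no H2A sum was taken without it.

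The class with both lists high was tested against each of the others but non-cycling, and the G2/M list alone was not tested against the S list alone. With both lists high against the S list alone, 34 of 35 members rose, against 11.4% called higher and 8.05% called lower over 8871 genes. For the S list alone against non-cycling barcodes, 17 members passed the filter on low counts. Members that passed it only through the class with both lists high could hardly have been called lower. Hist1h1b stood at 881, 791, 781 and 619 CPM with both lists high, against 12.4, 10.985, 8.33 and 21.8 CPM with the S list alone (5.65 ± 0.16, adjusted p = 4.74e-13). Hist1h2ap had a change of 5.43 ± 0.13 and Hist1h1e of 3.37 ± 0.08. The difference of Hist1h1c between S-like and non-cycling barcodes had not passed the test with all kept barcodes. Here Hist1h1c stood at 91.6, 69.8, 63.7 and 64.6 CPM with both lists high, against 19.7, 22.9, 18.7 and 17.2 CPM with the S list alone (1.88 ± 0.11). The call on Hist3h2a (1.30 ± 0.42, adjusted p = 0.0434) was lost without Ac (0.209), without aC+C (0.124), with DESeq2 and without the library block. Hist1h2bc was the member not called, at 0.02 ± 0.23.

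With both lists high against the G2/M list alone, 24 of 31 members rose and 1 fell, against 11% called higher and 9% called lower over 7598 genes. Hist1h1b stood at 881, 791, 781 and 619 CPM with both lists high, against 84.5, 61.7, 129.8 and 126.2 CPM with the G2/M list alone (2.88 ± 0.16). The member that fell was Hist1h2bc, at 9.16, 30.8, 11.3 and 15.003 CPM with both lists high, against 93.1, 82.3, 101 and 50.8 CPM with the G2/M list alone (-2.44 ± 0.28, adjusted p = 1.1e-05). The classes did not overlap, and the order was the reverse of that of Hist1h1b.

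Barcodes with the S list alone were also set against non-cycling barcodes, with 17 members tested. Of these 8 rose and 3 fell, against 21.9% called higher and 20.4% called lower over 9244 genes. Hist1h3a had the largest change of those tested: it stood at 17.4, 14.6, 14.6 and 15.9 CPM with the S list alone, against 2.67, 2.47, 1.98 and 1.80 CPM in non-cycling barcodes (2.82 ± 0.23, adjusted p = 6.02e-07). Hist1h3c rose by 2.38 ± 0.39, Hist1h1b by 1.90 ± 0.36 and Hist1h2bj by 1.90 ± 0.25. The members that fell were Hist1h1c (-0.84 ± 0.14), Hist3h2ba (-0.95 ± 0.24) and Hist3h2a (-1.90 ± 0.34). The call on Hist3h2ba was lost with DESeq2 (adjusted p = 0.102). Hist1h1e did not pass, at -0.06 ± 0.11.

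With the G2/M list alone against non-cycling barcodes, 16 of 18 members rose and 0 fell, against 8.29% called higher and 6.13% called lower over 8628 genes. DESeq2 called 15 higher and 0 lower, and at an unadjusted p under 0.05 there were 17 higher and 0 lower. Hist1h2bc stood at 93.1, 82.3, 101 and 50.8 CPM with the G2/M list alone, against 9.92, 17.6, 18.0 and 22.0 CPM in non-cycling barcodes (2.26 ± 0.26, adjusted p = 4.22e-05). Hist1h1c stood at 107, 95.2, 71.3 and 63.9 CPM with the G2/M list alone, against 31.7, 28.7, 35.4 and 38.7 CPM in non-cycling barcodes (1.25 ± 0.18). Both genes were higher in all 4 libraries. The call on Hist1h1e (0.94 ± 0.24) was lost without aC+C (adjusted p = 0.176).

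**Figure D2:**
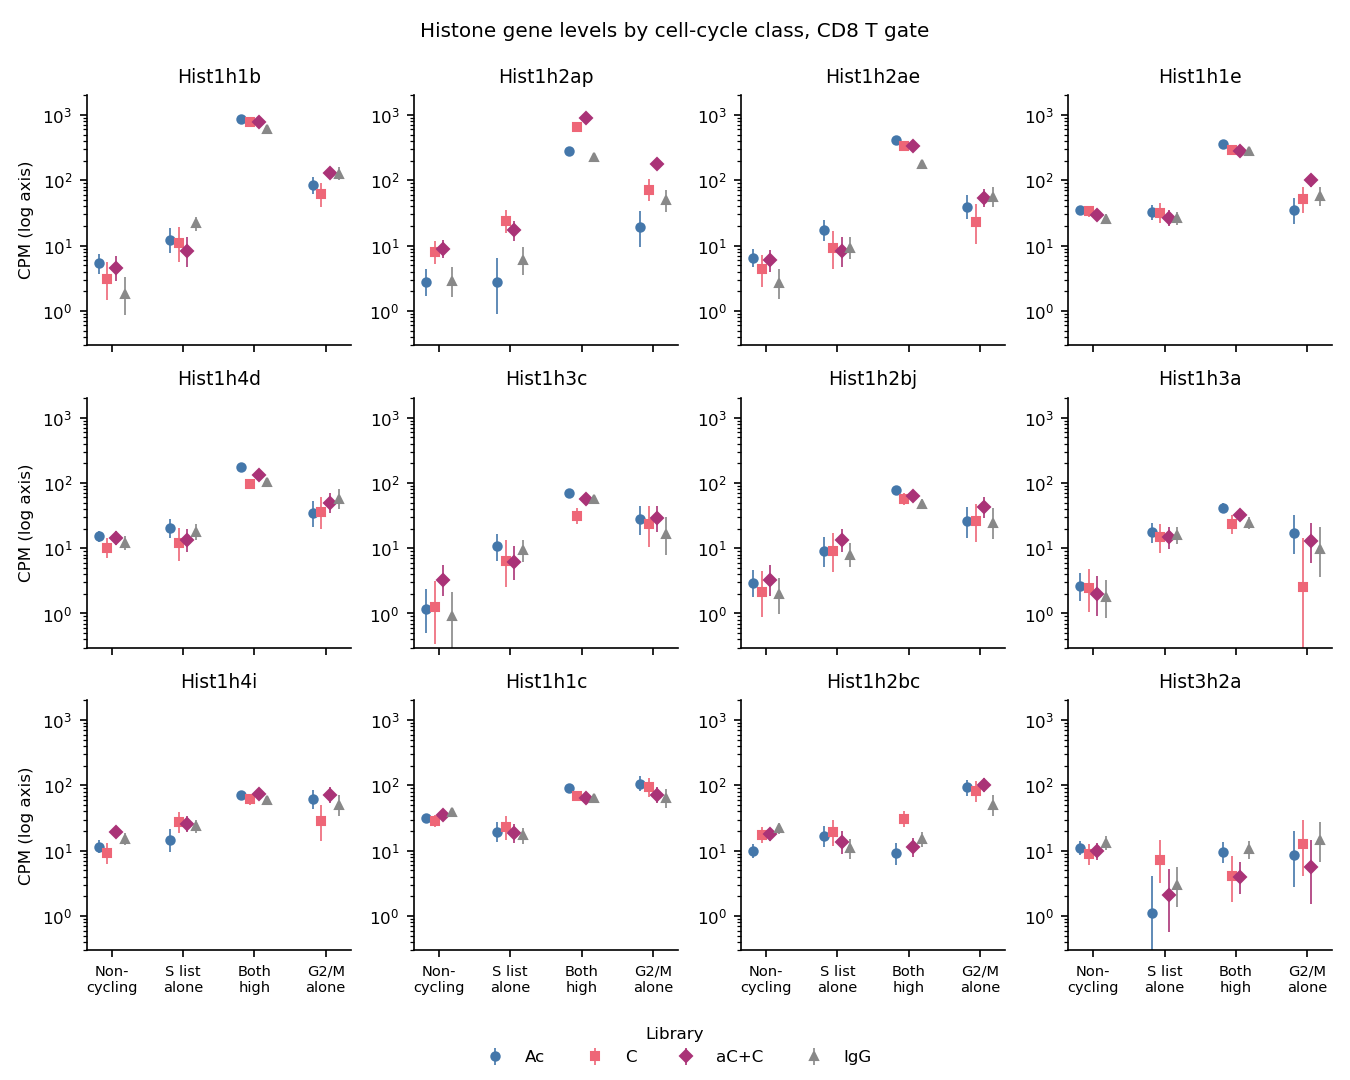
Level in CPM (log axis) of 12 histone genes in 4 cell-cycle classes of the CD8 T gate, with 1 point per library and bars for the exact 95% counting interval; levels at or near 0 are drawn at the foot of the axis. Hist1h1b peaked with both lists high at 619 to 881 CPM, Hist1h3a had already left its non-cycling level with the S list alone, and Hist1h2bc was highest with the G2/M list alone at 50.8 to 101 CPM.

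A higher pooled level of Hist1h2bc with the G2/M list alone was also seen in the other gates. Summed over the libraries, Hist1h2bc stood at 16.3, 14.1, 14.7 and 82.5 CPM in the CD8 T gate, over non-cycling, S list alone, both lists high and G2/M list alone in that order. It stood at 41.9, 9.21, 18.3 and 137 CPM in the NK gate, 49.8, 70.9, 31.9 and 114 CPM in the monocyte or macrophage gate, and 182, 64.9, 56.0 and 392 CPM in the collagen gate. The class with the G2/M list alone was highest in each gate, and held 24 barcodes in the NK gate, 55 in the monocyte or macrophage gate and 29 in the collagen gate. These differences were not tested. Markers of other cells also differed between the wider G2/M-like class and non-cycling barcodes. The mesenchymal list stood at 337 and 12.2 CPM in the NK gate, 887 and 33.9 in the monocyte or macrophage gate and 26.8 and 6.22 in the CD8 T gate. The collagen list stood at 252 and 114, 959 and 219, and 192 and 58.2 CPM in the same gates. The part of such RNA in the Hist1h2bc values was not tested.

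The level of the S list itself gave a graded view. Among CD8 T barcodes of at least 5000 UMIs, Hist1h1b stood at 7.88, 3.31, 5.91 and 2.32 CPM where the S list was under 4 per 10000. It stood at 684, 609.6, 682 and 429 CPM where the S list was 30 or more. Hist1h3a stood at 3.08, 2.37, 1.24 and 2.06 CPM in the lowest bin, and at 39.6, 20.5, 37.6 and 31.4 CPM in the highest. Hist3h2a stood at 10.8, 8.52, 9.64 and 12.6 CPM in the lowest bin, and at 4.49, 4.65, 3.38 and 3.80 CPM in the highest. The lowest and the highest bin did not overlap for any of these 3 genes.

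Non-cycling barcodes of each gate were compared with non-cycling CD8 T barcodes, a comparison added after the data were seen. In the collagen gate 3 of 14 members were higher and 7 lower, against 36.7% called higher and 38% called lower over 10937 genes. Hist1h2bc stood at 184, 104, 214 and 239.9 CPM in the collagen gate, against 9.92, 17.6, 18.0 and 22.0 CPM in the CD8 T gate (3.23 ± 0.20, adjusted p = 5.02e-07). Hist1h1c stood at 168, 164, 100.2 and 267 CPM in the collagen gate, against 31.7, 28.7, 35.4 and 38.7 CPM in the CD8 T gate (2.05 ± 0.19). Neither gene's levels overlapped between the gates. The third, Hist3h2a (0.57 ± 0.16), lost its call without Ac (adjusted p = 0.0545). Hist3h2ba had a UMI in non-cycling barcodes of 1 library of the collagen gate, at 0, 0, 0.186 and 0 CPM, against 12.4, 8.65, 7.69 and 7.21 CPM in the CD8 T gate, and was called lower. Hist1h1e (-1.80 ± 0.15), Hist1h4d (-1.63 ± 0.21) and Hist2h2ac (-2.27 ± 0.35) were lower too.

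In the monocyte or macrophage gate 4 of 19 members were higher and 11 lower, against 35.6% called higher and 34.9% called lower over 10891 genes. Hist3h2a stood at 38.7, 32.8, 31.9 and 37.5 CPM in the monocyte or macrophage gate, against 11.1, 8.96, 9.89 and 13.2 CPM in the CD8 T gate (1.74 ± 0.10, adjusted p = 4.19e-06). Hist1h2bc (1.57 ± 0.21), Hist4h4 (1.07 ± 0.25) and Hist1h1c (0.79 ± 0.13) were the other members that were higher. Hist1h1e stood at 6.11, 11.2, 7.02 and 6.84 CPM in the monocyte or macrophage gate, against 34.5, 33.4, 29.7 and 25.6 CPM in the CD8 T gate (-1.99 ± 0.16, adjusted p = 2.39e-05). The gates did not overlap for Hist3h2a or Hist1h1e.

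The NK gate lay closer to the CD8 T gate, with 3 of 14 members higher and 0 lower, against 18.2% called higher and 16.8% called lower over 9810 genes. At an unadjusted p under 0.05, 3 were lower, and DESeq2 called 1 higher and 0 lower. Hist1h2bc stood at 31.8, 41.1, 56.9 and 46.3 CPM in the NK gate, against 9.92, 17.6, 18.0 and 22.0 CPM in the CD8 T gate (1.53 ± 0.12, adjusted p = 2.77e-06). The other 2, Hist3h2a (0.59 ± 0.15) and Hist1h1c (0.38 ± 0.10), lost their calls without C (adjusted p = 0.0545 and 0.0525), and Hist3h2a also without Ac (0.0564). The counts of higher members in the 3 gates lie near or below the shares called higher over all genes, so they are no result about the family as a whole.

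**Figure D3:**
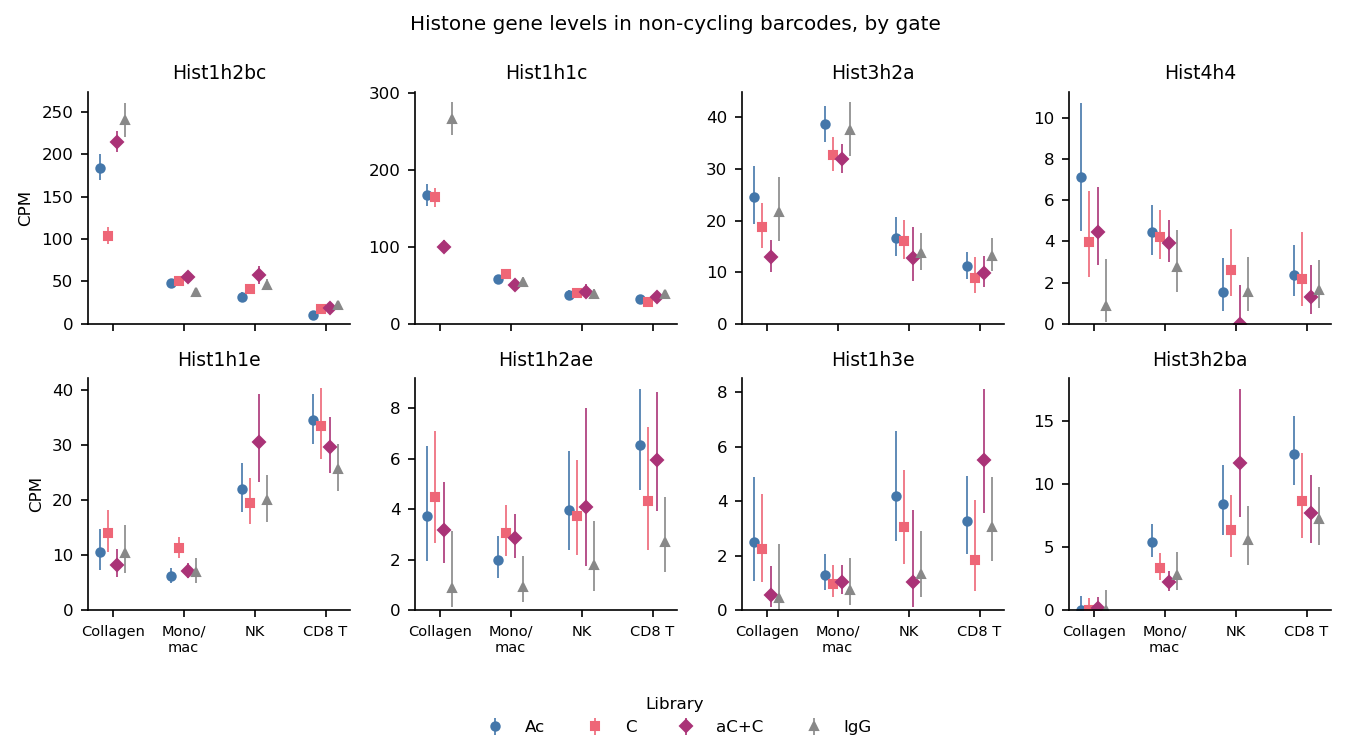
Level in CPM of 8 histone genes in non-cycling barcodes of the collagen, monocyte or macrophage, NK and CD8 T gates, with 1 point per library and bars for the exact 95% counting interval. Hist1h2bc and Hist1h1c were highest in the collagen gate, Hist3h2a in the monocyte or macrophage gate at 31.9 to 38.7 CPM, and Hist1h1e, in Ac, C and IgG, in the CD8 T gate.

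Histone genes outside the family, listed as replication-independent though not all are free of cell-cycle control, were set beside it. Of 14 such genes listed, 12 were in the files and 10 were tested in the CD8 T gate. In S-like against non-cycling barcodes 5 rose and 2 fell, against 27% called higher and 25.2% called lower over all genes, with a median of 0.16. H2afz, which encodes H2A.Z, stood at 1500.0, 1482, 1492 and 1488 CPM in S-like barcodes, against 535, 616, 557 and 655 CPM in non-cycling barcodes (1.34 ± 0.05, adjusted p = 4.58e-11). H2afx, which encodes the H2A.X of DNA damage signalling, rose by 1.30 ± 0.08. H1f0, the linker histone of resting cells, fell by 0.95 ± 0.15 and H3f3b, an H3.3 gene, by 0.13 ± 0.05. In S-like against G2/M-like barcodes 8 of 10 were lower, against 12.6% of all genes, and the other 2 were not called. Their median there was -0.99, against -1.35 for the family, so both lay lower in S-like barcodes.

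A list was also taken of genes that act on histone mRNA or deliver new histones. Of 18 tested, 16 rose in S-like against non-cycling barcodes of the CD8 T gate and 2 were not called, against 27% of all genes called higher, with a median of 1.10. Slbp, which encodes the stem-loop binding protein, stood at 276, 258, 278 and 271 CPM in S-like barcodes, against 102, 102, 90.8 and 92.8 CPM in non-cycling barcodes (1.49 ± 0.06, adjusted p = 1.5e-10). Asf1b and Chaf1a, both histone chaperones of replication, rose by 4.58 ± 0.13 and 3.89 ± 0.13. Against G2/M-like barcodes 7 were higher in S-like barcodes, among them Chaf1b (0.97), Hat1 (0.59) and Slbp (0.32), and 1, Asf1b, was lower (-0.65), against 11.5% and 12.6% of all genes. Lsm10 (-0.13 ± 0.10) and Sympk (0.21 ± 0.10) did not pass in S-like against non-cycling barcodes.

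The libraries were then compared for each member. Each group is 1 library, so the difference has no replicate check, and ratios of CPM are given with exact 95% intervals that cover counting error only. A member was called library-wide where its ratio was at least 2 (or at most 0.5), with an interval leaving out 1, in barcodes of 1 to 50 UMIs and in every gate and cell-cycle class with at least 20 of its UMIs over both libraries, with at least 3 such classes. The low barcodes stand for free RNA and carried 3.58% to 4.99% of a library's UMIs. The members that could be judged were 27 in Ac over IgG, 23 in C over IgG, 22 in aC+C over IgG and 23 each in aC+C over Ac and over C. A member with under 20 UMIs in free RNA over both libraries could not be judged. Among these were Hist1h3b, with 5, 3, 3 and 2 such UMIs, and Hist1h2an, with 3, 2, 4 and 5.

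Hist1h2ap was the 1 member called, and only in aC+C over Ac. Over all kept barcodes it stood at 185.6 CPM in aC+C, 135.3 in C, 52.5 in Ac and 55.5 in IgG. In aC+C over Ac it passed 2-fold in 20 of 20 classes, with ratios of 2.15 to 14.3, and in free RNA at 2.66 (2.11 to 3.36), with 253 against 108 UMIs. The highest ratio rests on 34 UMIs in aC+C against 2 in Ac, with an interval of 3.67 to 123. The rule was met by 5 of 10380 genes there (0.0482%). The call was lost when barcodes over 40000 UMIs were left out.

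The other comparisons of Hist1h2ap came close to the rule or did not. In C over IgG it passed in 16 of 20 classes, with ratios of 1.28 to 5.26, and in free RNA at 2.50 (1.96 to 3.20). In aC+C over IgG it passed in 16 of 19 classes, with ratios of 0.672 to 10.4, and in free RNA at 3.08 (2.42 to 3.94). In Ac over IgG it passed in 3 of 15 classes, with free RNA at 1.16 (0.870 to 1.54), and in aC+C over C in 1 of 20, with free RNA at 1.23 (1.03 to 1.47). Over all genes the rule was met for higher values by 0.0% in Ac over IgG and in C over IgG, 0.0387% in aC+C over IgG and 0.00957% in aC+C over C. For lower values it was met by 0.029% in Ac over IgG and in aC+C over IgG and by 0.0% in the other 3 comparisons. These comparisons share libraries and are not independent of each other.

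Within the CD8 T gate, Hist1h2ap stood at 343 CPM in aC+C and 69.0 CPM in Ac among S-like barcodes, a ratio of 4.97 (4.31 to 5.75). Among G2/M-like barcodes it stood at 703 CPM in aC+C and 243 CPM in Ac, a ratio of 2.89 (2.68 to 3.11), and among non-cycling barcodes at 9.01 and 2.81 CPM, a ratio of 3.20 (1.82 to 5.84). In C over IgG the ratio was 3.22 (2.79 to 3.71) among S-like and 2.85 (2.59 to 3.14) among G2/M-like barcodes. In aC+C over IgG it was 4.84 (4.30 to 5.46) and 4.04 (3.72 to 4.39). Hist1h1b, over all kept barcodes, stood at 118 CPM in aC+C, 115 in C, 127 in Ac and 130.4 in IgG, so the member with the most UMIs did not share the pattern.

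The share of cells with a Hist1h2ap UMI was also higher in aC+C and C than in Ac and IgG after each barcode was thinned to 5000 UMIs. With both lists high in the CD8 T gate, 89.4% of barcodes in aC+C, 91.3% in C, 71.3% in Ac and 68.1% in IgG had a UMI. Before thinning the shares were 95.8% in aC+C, 95.7% in C, 94.1% in Ac and 90.1% in IgG. Hist1h1b was seen in 86.6% of the same thinned barcodes in aC+C, 89.9% in C, 91.2% in Ac and 84.4% in IgG. In non-cycling barcodes of the monocyte or macrophage gate, taken as background, Hist1h2ap was seen in 2.16% in aC+C, 2.32% in C, 0.566% in Ac and 0.488% in IgG. That share, too, was above the others in aC+C and C. Barcodes under 5000 UMIs were left out, 1 (in IgG) in the CD8 T class. In the background class 152 were left out in aC+C, 148 in C, 103 in Ac and 90 in IgG.

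Set against the rest of the family, Hist1h2ap had 33.0 UMIs per 100 UMIs of the other members in aC+C, 24.5 in C, 8.36 in Ac and 9.63 in IgG. The highest of the 4 values was 3.95 times the lowest. Over the 47 members with at least 200 UMIs this quotient had a median of 1.52 and a minimum of 1.14. The next values were 2.52 for Hist1h2an, 2.38 for Hist1h3b and 2.20 for Hist1h2ag. Hist1h3b had 0.585 UMIs per 100 of the others in aC+C, 0.562 in C, 0.246 in Ac and 0.336 in IgG. Like Hist1h2ap, it was higher in C and aC+C. Hist1h2an (0.141, 0.0967, 0.227 and 0.243 in the same order) and Hist1h2ag (0.255, 0.212, 0.361 and 0.466) were lower there. Without Hist1h2ap the family stood at 562 CPM in aC+C, 552 in C, 628 in Ac and 576 in IgG, a range narrower than that of Hist1h2ap itself.

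The ratio to the other members was higher in aC+C and C than in Ac and IgG in each cycling class compared. Among S-like barcodes of the CD8 T gate it was 37.0 in aC+C, 29.9 in C, 7.90 in Ac and 10.2 in IgG, and among G2/M-like barcodes 35.7, 25.3, 9.18 and 10.5 in the same order. In the NK gate, S-like barcodes had 32.5 in aC+C, 33.9 in C, 11.3 in Ac and 16.9 in IgG. In the collagen gate they had 42.3 in aC+C, 55.7 in C, 16.1 in Ac and 18.2 in IgG. IgG came nearest to C and aC+C in the S-like class of the monocyte or macrophage gate, with 34.2 in aC+C, 38.9 in C, 3.82 in Ac (2.07 to 6.48) and 26.0 in IgG (20.9 to 32.0). Ac and IgG had 28 barcodes each there, and the ratio of Hist1h2ap in aC+C over IgG was 0.672 (0.518 to 0.873) on 128 against 113 UMIs. G2/M-like barcodes of that gate had 42.0 in aC+C, 34.7 in C, 12.3 in Ac and 12.3 in IgG.

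**Figure D4:**
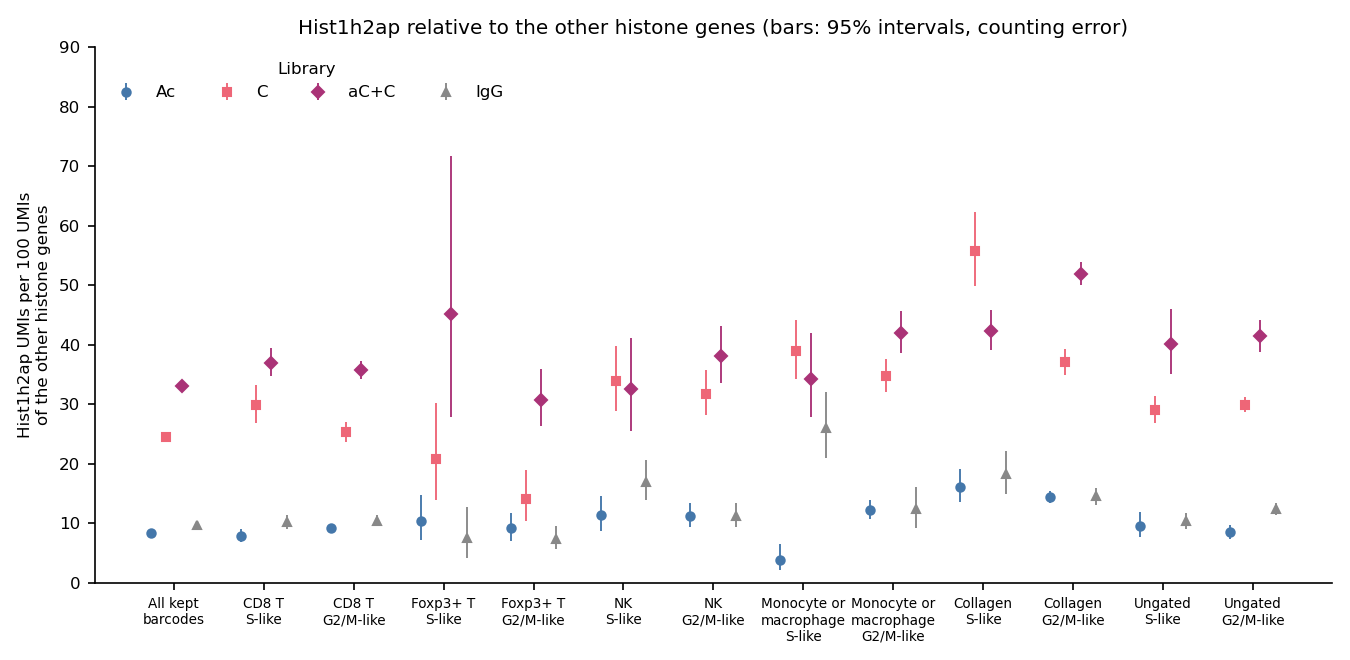
UMIs of Hist1h2ap per 100 UMIs of the other histone genes (y axis) over all kept barcodes and in the S-like and G2/M-like classes of 6 gates (x axis), with 1 point per library and bars for 95% intervals of counting error. C and aC+C lie above Ac and IgG in each class plotted, by the smallest factor over IgG in the S-like class of the monocyte or macrophage gate, where IgG stands at 26.0.

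None of the other members that could be judged met the rule in any of the 5 comparisons. Those that passed 2-fold in the most classes were Hist1h4h, in 6 of 9 classes of C over IgG, Hist1h2ae, in 6 of 18 classes of Ac over IgG, and Hist1h2bc, in 8 of 24 classes of Ac over IgG, of which 5 were higher. Hist1h2ae stood at 51.2 CPM in aC+C, 53.0 in C, 58.3 in Ac and 37.6 in IgG over all kept barcodes, and Hist1h4d at 26.9, 22.3, 37.9 and 32.9 CPM in the same order. Among G2/M-like barcodes of the CD8 T gate, the median ratio of Ac over IgG was 1.53 over 45 judged members and 0.9804 over all judged genes. Among G2/M-like barcodes of other gates the same median was 0.872 over 22 members in the NK gate (all genes 1.07), 1.02 over 15 in the Foxp3+ T gate (1.02), 1.45 over 21 in the monocyte or macrophage gate (1.08) and 1.46 over 37 in the collagen gate (0.992). For aC+C over Ac it was 0.739 over 50 members in the CD8 T gate (all genes 0.949), 1.005 over 19 in the NK gate (0.948), 0.894 over 13 in the Foxp3+ T gate (0.961), 0.655 over 29 in the monocyte or macrophage gate (0.961) and 0.674 over 46 in the collagen gate (0.949). The gates did not all lie on the same side of 1.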

How the data were processed

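Single-cell 3′ libraries, 1 per group, were deposited as tables of raw counts, 1 UMI count for each gene in each barcode, with 27998 genes and no filter for cells. Per the submitters' processing notes they were made with Cell Ranger 2.1.1 and mm10, per the labels' protocols with 3′ v2 reagents, and per the file headers with software version 3.0.2. Neither source used here gives an annotation release or alignment settings. The counts as deposited were used unchanged, and 0 columns lacked a sample.

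Barcodes with at least 1000 UMIs and at most 10% mitochondrial UMIs were kept, and those of 1 to 50 UMIs served as free RNA. No doublet caller was run; a maximum of 40000 UMIs was tried instead. Counts were summed per library and class and tested with edgeR 4.0.16 (R 4.3.3; filterByExpr, TMM, quasi-likelihood test, Benjamini-Hochberg adjustment over all genes tested). The library was the block, since both classes of a pair came from the same library, and libraries with under 20 barcodes in a class were left out. P-values measure the spread between these 4 libraries, which the labels do not tie to separate animals. Ratios between libraries carry exact conditional binomial intervals (SciPy 1.17.1) that cover counting error only. On simulated counts of the S-like against non-cycling comparison in the CD8 T gate (9827 genes), 59.7% of changes of 1.5-fold, 98.5% of 2-fold and 100% of 4-fold were recovered. These shares were 20.9%, 70.15% and 100% in the NK gate, and 40.3%, 80.6% and 98.48% in the monocyte or macrophage gate.

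Genes named with values were members with at least 200 UMIs over kept barcodes, library-wide members, and genes of 2 lists by the same minimum: 14 replication-independent histones, and 19 genes of histone mRNA processing and chaperones. Members and lists were chosen with earlier results of these data known. The narrower cell-cycle classes, the comparisons between gates and the setting without collagen-list barcodes were added after seeing the data. Alternatives were DESeq2 1.42.0, other scalings, no filter, no block, other thresholds and leaving out each library.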

Additional observations from a re-analysis of the deposited data

Results flagged for a closer look

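The change of Hist1h1c between S-like and non-cycling barcodes differed between gates by a test of the difference, monocyte or macrophage gate minus CD8 T gate, at -0.80 ± 0.20 on the log2 scale (edgeR interaction, adjusted p = 0.00854). It was lower in S-like barcodes in 4 of 4 libraries in the monocyte or macrophage gate and in 2 of 4 in the CD8 T gate. The difference stayed past the threshold under each of its 7 alternatives, at -0.72 to -1.48.

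The same test gave -2.00 ± 0.56 for Hist2h2aa1 (adjusted p = 0.0180). The call was lost without C (adjusted p = 0.0508), without IgG (0.0597), without the library block (0.0735), with a maximum of 40000 UMIs (0.253) and without the collagen-list barcodes (0.191).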

How the results depend on the processing

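In S-like against non-cycling barcodes, members called higher numbered 26 to 29 in the CD8 T gate, 12 to 16 in the NK gate and 11 to 12 in the monocyte or macrophage gate when each library was left out in turn. Members called lower numbered 2 to 3 in each of these gates. DESeq2 called 1 member lower in the CD8 T gate, and with no filter on low counts 20 were higher and 5 lower in the monocyte or macrophage gate. With a phase threshold of 30, 1 member (Hist1h3a, adjusted p = 0.0118) was higher in S-like than in G2/M-like barcodes. That threshold was not run in the NK and monocyte or macrophage gates, which then had too few libraries with 20 barcodes.

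For non-cycling NK against CD8 T barcodes, 1 member was higher with DESeq2, and leaving out each library gave 1 to 3 higher (1 without C) and 0 to 1 lower (1 without aC+C, Hist1h1e). For the difference between NK and CD8 T gates, 1 member (Hist1h2bc) was lower without the collagen-list barcodes, and 0 to 1 when each library was left out. For the difference between the monocyte or macrophage and CD8 T gates, 1 was lower without the library block, 4 with a maximum of 40000 UMIs, and 1 to 2 lower and 0 to 1 higher when each library was left out. In that comparison 3 values changed sign with a call in either fit. They were Hist1h2ap at -0.91 and Hist1h2bc at -1.93 with a maximum of 40000 UMIs, and Hist1h2bc at -2.07 without the collagen-list barcodes. Library-wide members in aC+C over Ac numbered 0 with a maximum of 40000 UMIs. The cause of these changes was not tested.

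Without the library block (no pairing), 28 members were higher and 2 lower in the CD8 T gate, 16 and 3 in the NK gate, 11 and 3 in the monocyte or macrophage gate, and 0 and 32 in S-like against G2/M-like barcodes. Of 3016 values of single genes under an alternative, 105 lost a call, 29 gained one and 3 changed sign with a call in either fit. The other 2879 kept their side of the threshold. Among these, values called in neither fit may have changed sign.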
